A study of Mus musculus with 9 samples.

Results

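Genes of mitosis and chromosome segregation were followed across 9 arrays of 3T3-L1 pre-adipocytes, a clonal mouse fibroblast line that can be turned into adipocytes. The set was a list of 44 gene symbols, and a member was measured where a probe set carried exactly that symbol. Of the 44 genes, 42 were measured, each by 1 probe set, out of 22180 genes named on the array. Ccnb1 and Sgol1 were not matched by symbol and were not analysed here as members. All 42 measured genes were among the 12630 genes tested, those that reached the median of all values, 6.51 on the log2 scale, on at least 3 of 9 arrays.

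The study asked how gene expression in confluent pre-adipocytes given IBMX and dexamethasone depends on CD24, a small surface glycoprotein. There were 3 groups of 3 arrays: CD24 siRNA with IBMX/Dex, scrambled control siRNA with IBMX/Dex, and vehicle. IBMX, which raises cAMP by blocking phosphodiesterases, was given at 0.5 mM with 1 µM dexamethasone, a synthetic glucocorticoid, for 6 h. Cells of every group were kept for 48 h past confluence to stop their growth, and no label states if siRNA was also given to the vehicle cells. Replicates are numbered 1 to 3 in each group, and the 3 samples that carry the same number also share a tag in their descriptions. These sets of 3 are called number 1, number 2 and number 3. The labels do not say that replicates were separate cultures, so p-values measure only the spread between these samples.

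Mitosis is driven by Cdk1 bound to cyclin B, which Cdc25 phosphatases switch on and which the anaphase-promoting complex (APC/C) ends by marking cyclin B and securin for destruction. The spindle checkpoint holds the APC/C back until every kinetochore, the protein plate on a centromere, is attached to microtubules. Messenger RNAs of these proteins are made mainly in G2 and mitosis and are kept low in resting cells, so their level in bulk RNA follows the share of cells near division. In bulk RNA, fewer cells of a type and less RNA per cell cannot be told apart. Confluent 3T3-L1 cells are known to re-enter the cell cycle for a short time after the full hormone mixture that starts adipogenesis.

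The arrays had close medians, from 6.47 to 6.56 on the log2 scale. Cd24a, the mouse gene for CD24, read 10.15, 10.16 and 11.72 on the CD24 siRNA arrays of numbers 1, 2 and 3, 11.19, 11.73 and 11.81 on the scrambled siRNA arrays and 8.88, 9.92 and 9.49 on the vehicle arrays. The targeted gene was thus near its scrambled siRNA partner in the sample labelled CD24 siRNA replicate 3, and the main counts of genes that passed are also given without that array. The interaction test was not run without it. Of the fibroblast and pre-adipocyte markers, 9 of 9 measured were above the filter level, with means from 6.65 for Cd34 to 13.49 for Vim. Of the mature adipocyte markers, 2 of 6 were above it, Fabp4 with a mean of 9.60 and Retn with 6.64. The others were below, with means from 5.51 for Adipoq to 6.33 for Plin1.

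The mitosis genes differed far more between replicate numbers than between treatments. Averaged over the 42 genes, the log2 level was 9.39 on the number 2 arrays, 8.37 on the number 3 arrays and 7.92 on the number 1 arrays. Number 2 was high in every group: the averages were 9.48 with CD24 siRNA, 9.52 with scrambled siRNA and 9.16 with vehicle, and the highest of the other 6 arrays averaged 8.42. Of each gene's variation between arrays, the number accounted for a median of 91.3% among the mitosis genes (60.6% to 98.2%), against 36.2% among all genes tested. The group accounted for a median of 3.75% (0.189% to 27.9%), against 28.3% among all genes tested. For 40 of the 42 mitosis genes the 3 number 2 arrays all lay above the other 6 arrays, which held for 3.96% of all genes tested. The exceptions were Bub3 and Incenp. For 23 of the 42 the number 3 arrays all lay above the number 1 arrays, which held for 9.94% of all genes tested.

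**Figure D1:**
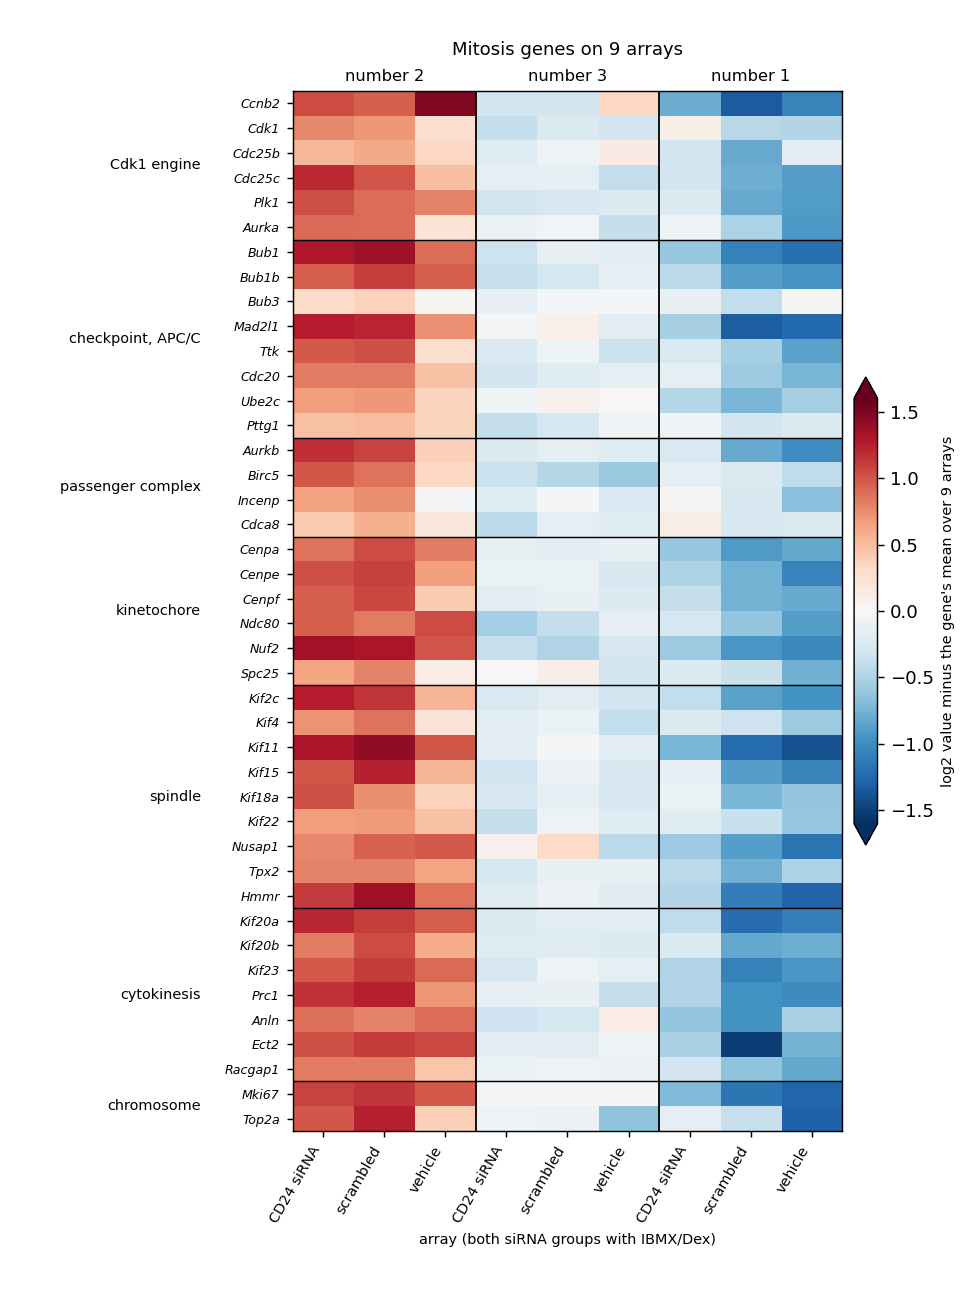
Log2 value of each of the 42 measured mitosis genes on each array, minus that gene's mean over the 9 arrays, with genes grouped by role and arrays by replicate number. The number 2 columns are red for nearly every gene, the number 3 columns lie near each gene's mean, and the number 1 columns are mostly blue, palest on the CD24 siRNA array.

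The numbers were compared in limma with the group as a term, so that the spread is what remains among the 3 arrays of a number once group differences are taken out. These genes were chosen with their difference between numbers already known from these data. The counts and p-values between numbers, here and below, are therefore descriptive and not an independent test. By the F test over numbers, 41 of the 42 mitosis genes passed an adjusted p of 0.05 (Benjamini-Hochberg over all genes tested), against 24% of all genes tested. Between number 2 and number 1, 41 were higher and 0 lower, where 8.05% of all genes were higher and 12.3% lower. The median log2 difference was 1.54 (2.91-fold), against -0.04 over all genes tested. Between number 2 and number 3, 40 were higher and 0 lower (3.05% of all genes higher and 2.3% lower), with a median of 1.06. Between number 3 and number 1, 23 were higher and 0 lower (6.1% of all genes higher and 10.7% lower), with a median of 0.47. This last count rested on single arrays. It was 6 without the number 1 or the number 3 scrambled siRNA array. It was 7 without the number 1 vehicle array and 14 without the number 3 vehicle array, and shares over all genes are not given for these settings. Leaving out the array labelled CD24 siRNA replicate 3 gave 24 for this comparison, 34 for number 2 against number 3 and 41 for number 2 against number 1, where 4.13%, 1.16% and 7.81% of all genes tested were higher. Which step of culture, transfection, RNA handling or array processing a number stands for cannot be told apart here.

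**Figure D2:**
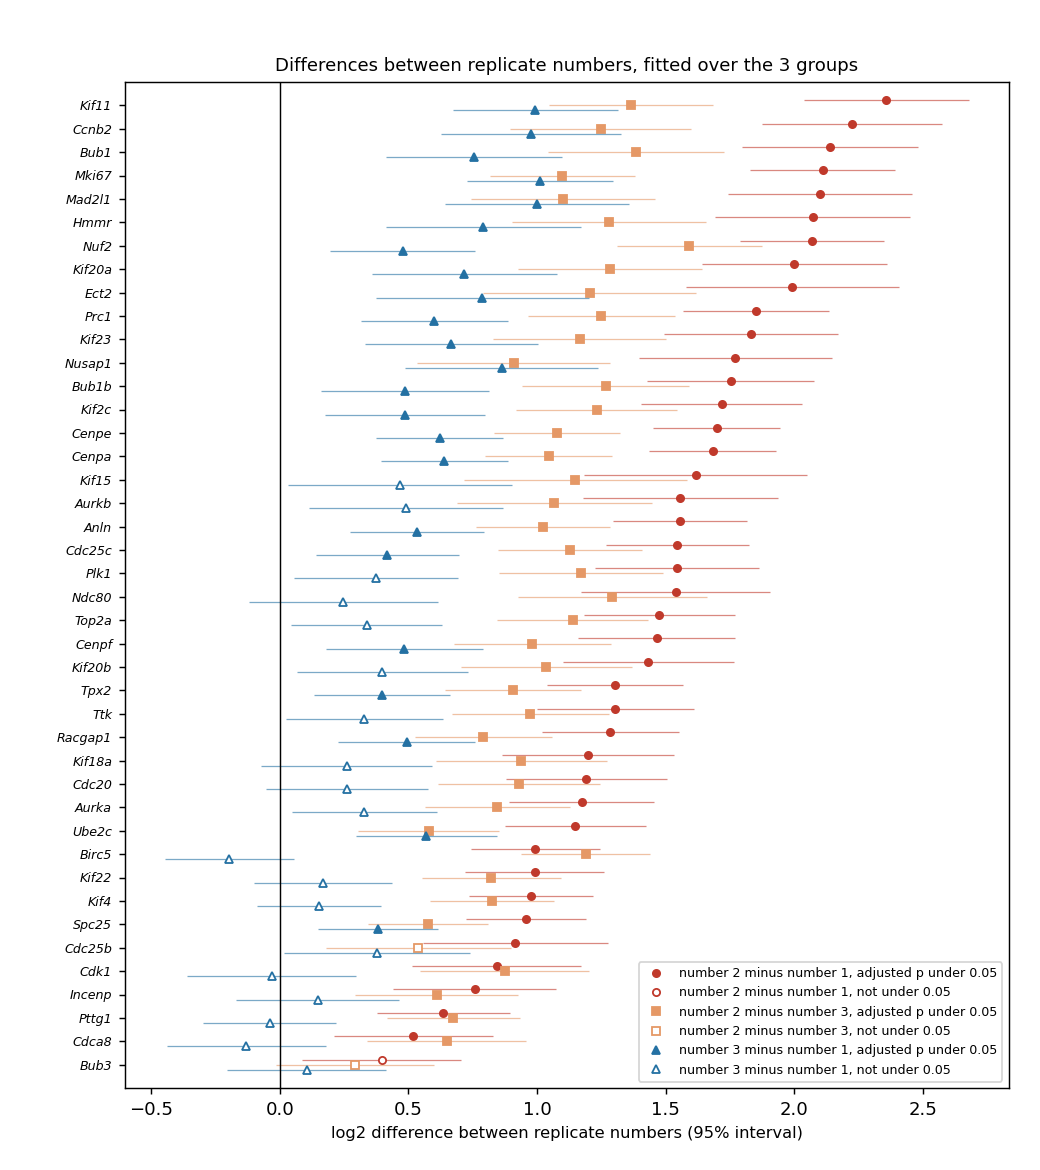
Fitted log2 difference between replicate numbers for each measured mitosis gene, with 95% intervals, ordered by the difference of number 2 from number 1. Filled symbols passed an adjusted p of 0.05: all but Bub3 for number 2 against number 1, all but Bub3 and Cdc25b for number 2 against number 3, and 23 genes for number 3 against number 1.

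In order of the difference between number 2 and number 1, Kif11 came first at 2.36, followed by Ccnb2 at 2.22, Bub1 at 2.14, Mki67 at 2.11 and Mad2l1 at 2.10. Cdk1 at 0.84, Incenp at 0.76, Pttg1 at 0.64, Cdca8 at 0.52 and Bub3 at 0.40 came last. The 95% intervals of neighbours overlapped in 41 of 41 pairs, so the order of neighbouring genes is not resolved, while the ends of the list were apart.

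Among the genes that drive entry into mitosis, 6 of 6 measured were higher in number 2 than in number 1. Cdk1, the kinase at the centre of the switch, read 10.92, 11.35 and 11.43 on the number 2 arrays, 10.28, 10.36 and 10.43 on the number 3 arrays and 10.19, 10.22 and 10.76 on the number 1 arrays. Its number 2 arrays lay above all others, and numbers 3 and 1 overlapped: the difference was 0.84 ± 0.15 (SE) between numbers 2 and 1, with an adjusted p of 0.00495, and -0.03 ± 0.15 between numbers 3 and 1. Ccnb2, one of the B-type cyclins that activate Cdk1, read 10.71, 10.80 and 11.24 on the number 2 arrays, 9.45, 9.47 and 10.10 on the number 3 arrays and 8.43, 8.69 and 8.97 on the number 1 arrays. Its 3 numbers did not overlap, and the difference between numbers 2 and 1 was 2.22 ± 0.16, or 4.67-fold, with an adjusted p of 0.000117. Plk1, the polo-like kinase that promotes mitotic entry and spindle assembly, read 10.49, 10.59 and 10.72 on the number 2 arrays, 9.37, 9.43 and 9.48 on the number 3 arrays and 8.80, 8.89 and 9.48 on the number 1 arrays. Number 2 was 1.54 ± 0.14 above number 1 (adjusted p = 0.0003), and the number 3 and number 1 arrays overlapped.

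Among the spindle checkpoint and APC/C genes, 7 of 8 measured were higher in number 2 than in number 1. Bub1, a checkpoint kinase of the kinetochore, read 9.53, 9.92 and 10.00 on the number 2 arrays, 8.31, 8.47 and 8.50 on the number 3 arrays and 7.44, 7.55 and 8.04 on the number 1 arrays. The 3 numbers did not overlap, and number 2 was 4.40-fold above number 1 (2.14 ± 0.15, adjusted p = 0.000117). Cdc20, the APC/C activator that the checkpoint holds inactive, read 9.60, 9.94 and 9.95 on the number 2 arrays, 8.81, 8.92 and 8.96 on the number 3 arrays and 8.39, 8.54 and 8.98 on the number 1 arrays. Its number 2 arrays stood apart by 1.19 ± 0.14 from number 1 (adjusted p = 0.000836), while numbers 3 and 1 overlapped. Bub3, a checkpoint adaptor with further roles outside mitosis, read 11.06, 11.34 and 11.41 on the number 2 arrays, 10.92, 11.01 and 11.02 on the number 3 arrays and 10.65, 10.92 and 11.06 on the number 1 arrays. Its numbers overlapped, and its share of variation between numbers, 60.6%, was the lowest of the set, with an adjusted p of 0.116 in the F test and 0.0709 between numbers 2 and 1.

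All 4 genes of the chromosomal passenger complex were higher in number 2 than in number 1. Between number 3 and number 1, 0 of the 4 passed, where 6.1% of all genes tested were higher and 10.7% lower. Aurkb, the Aurora kinase of this complex that corrects faulty attachments, read 9.58, 10.27 and 10.36 on the number 2 arrays, 8.97, 9.01 and 9.04 on the number 3 arrays and 8.20, 8.39 and 8.95 on the number 1 arrays. The 3 numbers did not overlap, and number 2 was 1.56 ± 0.17 above number 1 (adjusted p = 0.000598). Among the 6 centromere and kinetochore genes, all were higher in number 2 than in number 1. Cenpa, the histone H3 variant that marks centromeres, read 9.70, 9.76 and 9.94 on the number 2 arrays, 8.72, 8.77 and 8.77 on the number 3 arrays and 7.99, 8.07 and 8.29 on the number 1 arrays. Its numbers did not overlap, and 98.2% of its variation lay between them, the highest share in the set. Nuf2, a subunit of the NDC80 complex that binds microtubules, read 8.51, 8.80 and 8.85 on the number 2 arrays, 7.02, 7.13 and 7.23 on the number 3 arrays and 6.46, 6.57 and 6.91 on the number 1 arrays. It had the largest difference of the set between numbers 2 and 3, 1.59 ± 0.13 (adjusted p = 0.00111), and was 2.07 ± 0.13 higher in number 2 than in number 1.

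The 9 spindle motor and spindle assembly genes were all higher in number 2 than in number 1. Kif11, the kinesin that pushes spindle poles apart, read 9.79, 10.10 and 10.21 on the number 2 arrays, 8.62, 8.62 and 8.77 on the number 3 arrays and 7.41, 7.56 and 8.06 on the number 1 arrays. With no overlap between numbers, it was 5.13-fold higher in number 2 than in number 1 (2.36 ± 0.14, adjusted p = 8.58e-05). Tpx2, which activates Aurora A on the spindle, read 9.65, 9.80 and 9.81 on the number 2 arrays, 8.74, 8.90 and 8.90 on the number 3 arrays and 8.25, 8.52 and 8.58 on the number 1 arrays, again with no overlap and a difference of 1.30 ± 0.12 between numbers 2 and 1 (adjusted p = 0.000272). All 7 midzone and cytokinesis genes were higher in number 2 than in number 1. Kif20a, a kinesin of the spindle midzone, read 10.58, 10.72 and 10.81 on the number 2 arrays, 9.37, 9.44 and 9.44 on the number 3 arrays and 8.39, 8.51 and 9.20 on the number 1 arrays. Racgap1, part of the centralspindlin complex that places the cleavage furrow, read 10.06, 10.43 and 10.43 on the number 2 arrays, 9.50, 9.51 and 9.53 on the number 3 arrays and 8.79, 8.96 and 9.31 on the number 1 arrays. Both genes had numbers that did not overlap, with differences between numbers 2 and 1 of 2.00 ± 0.16 for Kif20a and 1.29 ± 0.12 for Racgap1 (adjusted p = 0.000196 and 0.0003).

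Mki67, the widely used proliferation marker that coats mitotic chromosomes, read 10.26, 10.36 and 10.42 on the number 2 arrays, 9.24, 9.25 and 9.26 on the number 3 arrays and 8.01, 8.13 and 8.58 on the number 1 arrays. The 3 numbers did not overlap. The SD of the 3 arrays within number 3 was 0.01, while number 2 was 2.11 ± 0.13 above number 1 (adjusted p = 8.58e-05) and 1.10 ± 0.13 above number 3 (adjusted p = 0.00286). Hmmr, a spindle-associated hyaluronan receptor, was one of 3 members with values under the filter level, along with Nuf2 and Kif18a, a kinesin that limits chromosome movements. Those values all lay on number 1 arrays: 2 for Hmmr, 2 for Kif18a and 1 for Nuf2.

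**Figure D3:**
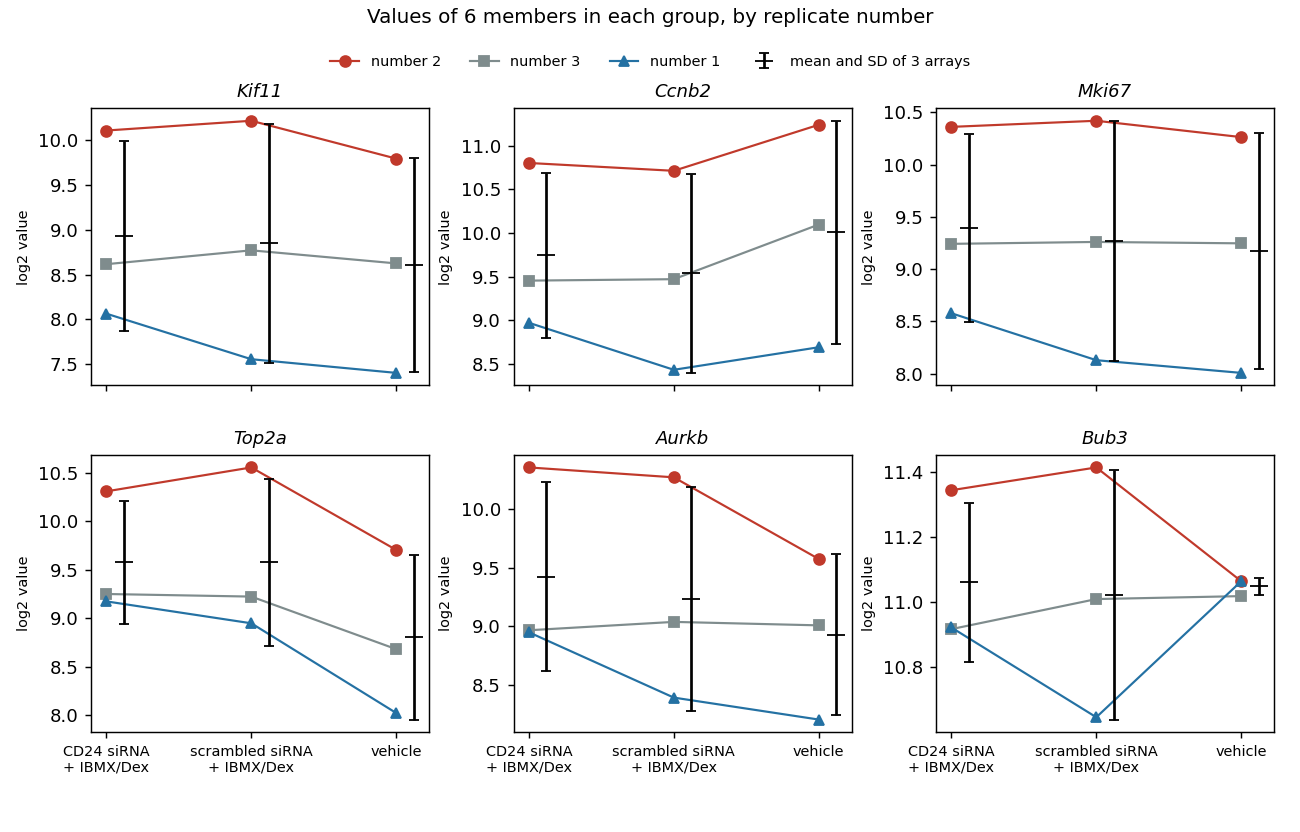
Log2 values of 6 mitosis genes in the 3 groups, with points joined by replicate number and the group mean and SD of 3 arrays beside them. The lines for numbers 2, 3 and 1 stay apart for Kif11, Ccnb2 and Mki67, Top2a slopes down to vehicle in all 3 numbers, and the lines of Bub3 meet at vehicle.

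The promoters of the mitosis genes were searched for the 2 letter motifs best known from such genes. A high share of matches thus does not depend on the array values and says nothing about the difference between numbers. The cell cycle genes homology region, with the letters TTTGAA, read from the opposite strand as TTCAAA, is bound by the DREAM complex in resting cells and by B-Myb and FoxM1 complexes in dividing cells. The CCAAT box, whose opposite strand reads ATTGG, is bound by NF-Y. The windows are those of RefSeq on GRCm38.p6, 300 bases long, reaching from 250 bases before the transcription start to 50 bases after it, and 37 of the 42 measured genes had one. TTTGAA on either strand occurred in 28 of 37 (75.7%), against 20.2% of 27025 genes with such a window. Within the last 100 bases of the window it occurred in 70.3% of the mitosis genes and 5.72% of all genes. CCAAT occurred in 70.3%, against 41.1% of all genes, and both motifs in 62.2%, against 7.97%. The median difference between numbers 2 and 1 was 1.51 in the 28 genes with TTTGAA and 1.70 in the 9 without. The following stretches of 140 bases, 120 before and 20 after the start, show Kif11 and Ccnb2 with the largest differences between numbers 2 and 1, Top2a with the largest difference between treatments, Cdk1 as the central kinase, Bub3 with the smallest difference and Nuf2 as a large difference without a match. They run 5′ to 3′ on the gene's strand, and capitals mark both motifs on either strand. No marked motif overlaps another.
Kif11, chr19:37376262-37376401, plus strand, number 2 above number 1 by 2.36: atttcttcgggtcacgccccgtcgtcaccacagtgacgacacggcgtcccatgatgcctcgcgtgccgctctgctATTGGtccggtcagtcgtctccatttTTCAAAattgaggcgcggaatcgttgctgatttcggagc
Ccnb2, chr9:70421535-70421674, minus strand, number 2 above number 1 by 2.22: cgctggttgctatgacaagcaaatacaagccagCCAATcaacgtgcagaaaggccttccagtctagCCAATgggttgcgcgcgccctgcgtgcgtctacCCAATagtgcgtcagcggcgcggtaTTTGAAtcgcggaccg
Top2a, chr11:99024170-99024309, minus strand, number 2 above number 1 by 1.48: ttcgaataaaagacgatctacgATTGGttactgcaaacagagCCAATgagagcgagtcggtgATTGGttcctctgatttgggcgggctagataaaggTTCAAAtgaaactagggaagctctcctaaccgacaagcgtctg
Cdk1, chr10:69352893-69353032, minus strand, number 2 above number 1 by 0.84: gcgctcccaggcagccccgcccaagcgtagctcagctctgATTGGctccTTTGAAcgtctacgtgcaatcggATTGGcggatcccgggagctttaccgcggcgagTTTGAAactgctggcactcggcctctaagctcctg
Bub3, chr7:131560250-131560389, plus strand, 1 of its listed starts, number 2 above number 1 by 0.40: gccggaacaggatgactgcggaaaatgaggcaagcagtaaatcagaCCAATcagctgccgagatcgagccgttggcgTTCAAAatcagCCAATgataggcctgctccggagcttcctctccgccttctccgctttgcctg
Nuf2, chr1:169531445-169531584, minus strand, number 2 above number 1 by 2.07: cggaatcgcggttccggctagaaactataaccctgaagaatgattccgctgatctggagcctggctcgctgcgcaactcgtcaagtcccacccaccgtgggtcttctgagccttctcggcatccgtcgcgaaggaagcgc
Bub3 holds TTTGAA and CCAAT matches as Kif11 does, with the smallest difference of the set, and Nuf2 holds neither, with one of the largest. A match is a run of letters, not a measured binding site.

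With the number as a block, a minority of the mitosis genes were higher after IBMX/Dex than with vehicle, and 0 were lower. With CD24 siRNA, 11 of 42 rose, where 10.4% of all genes tested rose and 12.1% fell, and the median log2 difference of the 42 genes was 0.29, against 0.01 over all genes. With scrambled siRNA, 6 of 42 rose, where 11.9% of all genes tested rose and 11.4% fell, so that this count was near the background, with a median of 0.18 against 0.02. Both comparisons use the same 3 vehicle arrays. Values of a group are given below in the order of numbers 1, 2 and 3. Without the block, 0 of 42 passed in either comparison, where 6.65% of all genes tested passed with CD24 siRNA and 6.94% with scrambled siRNA, and 0 of 42 had an unadjusted p under 0.05 in limma, which 22.2% of all genes tested had with CD24 siRNA and 22.7% with scrambled siRNA.

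Top2a, the topoisomerase that untangles sister chromatids, had the largest difference of the set. On the arrays of numbers 1, 2 and 3 it read 9.17, 10.31 and 9.25 with CD24 siRNA and IBMX/Dex, 8.95, 10.56 and 9.22 with scrambled siRNA and IBMX/Dex and 8.02, 9.70 and 8.68 with vehicle. Both IBMX/Dex arrays lay above the vehicle array of the same number in 3 of 3 numbers, although the groups overlapped when the numbers were pooled. The difference was 0.78 ± 0.13 (SE, 1.71-fold, adjusted p = 0.00337) with CD24 siRNA and 0.77 ± 0.13 (1.71-fold, adjusted p = 0.00319) with scrambled siRNA.

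Aurka, the Aurora kinase of centrosomes and spindle poles, read 8.85, 9.83 and 8.84 with CD24 siRNA and IBMX/Dex, 8.43, 9.83 and 8.89 with scrambled siRNA and IBMX/Dex and 8.01, 9.15 and 8.55 with vehicle on the arrays of numbers 1, 2 and 3. Each IBMX/Dex array was above its vehicle partner, by 0.60 ± 0.13 on average with CD24 siRNA (adjusted p = 0.00892) and 0.48 ± 0.13 with scrambled siRNA (adjusted p = 0.0236). Spc25, a subunit of the NDC80 complex at the kinetochore, read 7.49, 8.33 and 7.71 with CD24 siRNA and IBMX/Dex, 7.34, 8.49 and 7.79 with scrambled siRNA and IBMX/Dex and 6.94, 7.82 and 7.41 with vehicle. It too was higher with IBMX/Dex in all 3 numbers, by 0.45 ± 0.10 with CD24 siRNA (adjusted p = 0.0133) and 0.49 ± 0.10 with scrambled siRNA (adjusted p = 0.00932).

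Ttk, the checkpoint kinase also called Mps1, read 7.23, 8.46 and 7.24 with CD24 siRNA and IBMX/Dex, 6.95, 8.51 and 7.40 with scrambled siRNA and IBMX/Dex and 6.62, 7.74 and 7.13 with vehicle. Its differences were 0.48 ± 0.14 with CD24 siRNA (adjusted p = 0.0331) and 0.46 ± 0.14 with scrambled siRNA (adjusted p = 0.0379), positive in all numbers but only 0.10 and 0.27 in number 3. Kif4, a kinesin of chromosome arms and the midzone, read 7.11, 8.06 and 7.17 with CD24 siRNA and IBMX/Dex, 7.01, 8.20 and 7.22 with scrambled siRNA and IBMX/Dex and 6.76, 7.54 and 6.94 with vehicle. It was higher in all 3 numbers, by 0.37 ± 0.11 with CD24 siRNA (adjusted p = 0.0373) and 0.40 ± 0.11 with scrambled siRNA (adjusted p = 0.0254). Incenp, the scaffold of the passenger complex, read 8.21, 8.84 and 8.00 with CD24 siRNA and IBMX/Dex, 7.94, 8.94 and 8.17 with scrambled siRNA and IBMX/Dex and 7.52, 8.17 and 7.95 with vehicle. The average difference was 0.47 ± 0.14 with either siRNA (adjusted p = 0.04 with CD24 siRNA and 0.0396 with scrambled siRNA), and in number 3 it was 0.05 and 0.22.

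Another 5 genes passed with CD24 siRNA and not with scrambled siRNA, and the comparison of the siRNA groups with each other, given below, passed for none of them. Cdc25c, the phosphatase that activates Cdk1, read 7.19, 8.68 and 7.33 with CD24 siRNA and IBMX/Dex, 6.71, 8.50 and 7.33 with scrambled siRNA and IBMX/Dex and 6.61, 7.97 and 7.10 with vehicle. It was 0.51 ± 0.12 higher with CD24 siRNA than with vehicle (adjusted p = 0.0180) and 0.29 ± 0.12 higher with scrambled siRNA, which did not pass (adjusted p = 0.129). Birc5, known as survivin and part of the passenger complex, read 7.48, 8.62 and 7.29 with CD24 siRNA and IBMX/Dex, 7.40, 8.50 and 7.18 with scrambled siRNA and IBMX/Dex and 7.23, 7.96 and 7.04 with vehicle. Its differences were 0.39 ± 0.11 with CD24 siRNA (adjusted p = 0.0344) and 0.29 ± 0.11 with scrambled siRNA (adjusted p = 0.0964).

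Cenpe, the kinetochore kinesin that carries chromosomes to the spindle equator, read 7.52, 9.05 and 7.91 with CD24 siRNA and IBMX/Dex, 7.25, 9.10 and 7.91 with scrambled siRNA and IBMX/Dex and 6.94, 8.66 and 7.76 with vehicle. The difference was 0.37 ± 0.11 with CD24 siRNA (adjusted p = 0.0384), against 0.30 ± 0.11 with scrambled siRNA (adjusted p = 0.078). Kif2c, a kinesin that takes microtubules apart at centromeres, read 7.72, 9.38 and 7.88 with CD24 siRNA and IBMX/Dex, 7.26, 9.26 and 7.93 with scrambled siRNA and IBMX/Dex and 7.16, 8.66 and 7.79 with vehicle. It differed by 0.45 ± 0.14 with CD24 siRNA (adjusted p = 0.0451), and number 3 contributed only 0.08. Prc1, which bundles microtubules in the midzone, read 7.66, 9.29 and 7.99 with CD24 siRNA and IBMX/Dex, 7.17, 9.38 and 8.01 with scrambled siRNA and IBMX/Dex and 7.13, 8.84 and 7.76 with vehicle. Here the difference with CD24 siRNA was 0.41 ± 0.13 (adjusted p = 0.0473), just inside the threshold.

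Not every gene leaned upward: the fitted difference was negative for 8 of 42 with scrambled siRNA and 4 of 42 with CD24 siRNA. Anln, a cytokinesis gene, was below vehicle in all 3 numbers with either siRNA. Its differences of -0.31 with scrambled siRNA and -0.19 with CD24 siRNA did not pass. Ccnb2 read 8.97, 10.80 and 9.45 with CD24 siRNA and IBMX/Dex, 8.43, 10.71 and 9.47 with scrambled siRNA and IBMX/Dex and 8.69, 11.24 and 10.10 with vehicle, and was below vehicle with scrambled siRNA in all 3 numbers. Its difference of -0.47 ± 0.16 with scrambled siRNA did not pass (adjusted p = 0.0557), and nor did -0.27 ± 0.16 with CD24 siRNA (adjusted p = 0.257). Cdk1 differed by 0.33 ± 0.15 with CD24 siRNA and 0.17 ± 0.15 with scrambled siRNA. Plk1 differed by 0.27 ± 0.14 with CD24 siRNA and 0.05 ± 0.14 with scrambled siRNA, and Mki67 by 0.22 ± 0.13 with CD24 siRNA and 0.10 ± 0.13 with scrambled siRNA. With all arrays, none of these 3 genes passed the threshold (adjusted p from 0.141 to 0.84).

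The counts depended on single arrays and sets. With CD24 siRNA, 11 genes passed when the array labelled CD24 siRNA replicate 3 was left out, where 7.28% of all genes tested rose, but they were not the same 11. Birc5, Kif4, Cenpe and Prc1 no longer passed, with differences of 0.42, 0.41, 0.45 and 0.49 and adjusted p of 0.0747, 0.0733, 0.0504 and 0.0617, and Kif18a, Aurkb, Mad2l1 and Cdk1 passed instead, Cdk1 with 0.51 and an adjusted p of 0.0433. For the other settings, shares over all genes tested are not given. A loss of calls particular to the mitosis genes thus cannot be told from a general loss with fewer arrays. Without replicate 1 of the CD24 siRNA group 3 genes passed, 1 of them Ccnb2 as lower, and without its replicate 2, 2 passed. The count was 3 and 4 without the number 1 and number 2 vehicle arrays, 4 without the number 3 scrambled siRNA array, and 2 when number 2 was left out whole. When number 1 was left out whole, 2 passed, Top2a as higher and Ccnb2 as lower. With scrambled siRNA, 1 passed without the number 2 scrambled siRNA array, 2 without the number 3 one and 3 without the number 1 vehicle array, 1 of them Ccnb2 as lower. When number 1 was left out whole, Top2a passed as higher and Ccnb2 as lower, and when number 2 was left out, Top2a passed alone.

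The size of the difference from vehicle also varied by number. With CD24 siRNA the median over the 42 genes was 0.55 in number 1, 0.33 in number 2 and -0.02 in number 3, and 39, 36 and 17 genes were above vehicle. With scrambled siRNA the medians were 0.10, 0.38 and 0.07, with 27, 38 and 28 genes above vehicle. Within a number each group has 1 array. The interaction of IBMX/Dex with the number, which leaves 2 residual degrees of freedom, passed for 0 of 42 genes by limma, against 0.0158% of all genes tested. Unadjusted, 1 gene of the 42 (2.38%) had a p under 0.05, against 15.8% of all genes tested: Ndc80, a kinetochore protein that binds microtubules (adjusted p = 0.292).

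**Figure D4:**
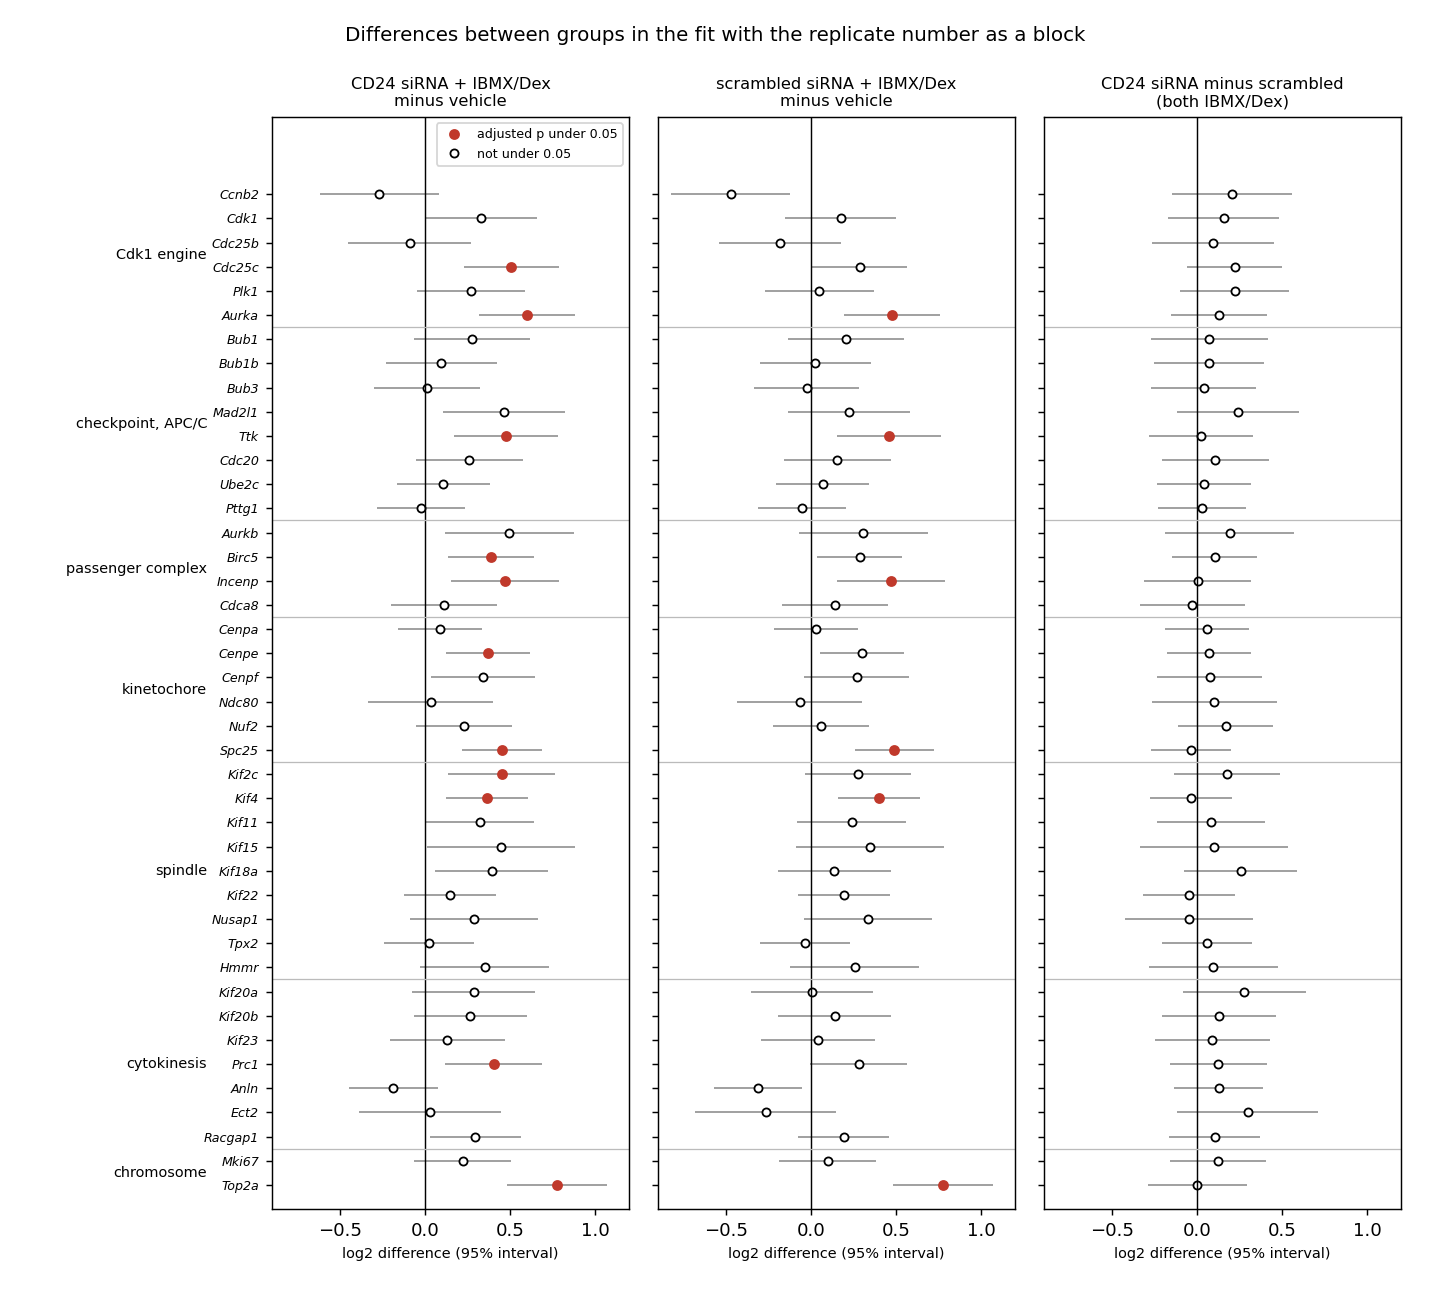
Fitted log2 difference with 95% interval for each measured mitosis gene in 3 comparisons, CD24 siRNA with IBMX/Dex minus vehicle, scrambled siRNA with IBMX/Dex minus vehicle, and CD24 siRNA minus scrambled siRNA. Red points passed an adjusted p of 0.05, 11 in the first panel, 6 in the second and 0 in the third.

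Between CD24 siRNA and scrambled siRNA, both with IBMX/Dex, 0 of 42 mitosis genes passed in limma (adjusted p = 1 for every one), 0 had an unadjusted p under 0.05, and 0% of all genes tested passed. An unadjusted p under 0.05 was found for 1.73% of all genes tested. When the array labelled CD24 siRNA replicate 3 was left out, 0 of 42 passed as well. An unadjusted p under 0.05 was then found for 8 of 42 (19.0%), against 2.09% of all genes tested, and the median difference was 0.22. This was not particular to the mitosis genes. Of the lists given further below, it held for 16 of 38 S phase genes (42.1%, median 0.32) and 8 of 49 other mitosis genes (16.3%, median 0.22). It held for 1 of 19 arrest and DREAM genes (5.26%, median -0.02). With all arrays the median log2 difference of the 42 genes was 0.10, and the smallest unadjusted p was 0.108, for Cdc25c. All 42 intervals included 0, and their bounds ran from -0.42 for Nusap1, a microtubule-bundling protein, to 0.71 for Ect2, the exchange factor that activates RhoA at the furrow. A 1.64-fold higher level of Ect2 thus lay within the interval.

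The difference between the siRNAs was not alike across numbers. In number 1, 42 of 42 mitosis genes were higher with CD24 siRNA than with scrambled siRNA, by a median of 0.43 and from 0.08 for Birc5 to 0.98 for Ect2, while 57.5% of all genes tested were higher, by a median of 0.04. In number 2, 15 of 42 were higher, with a median of -0.05 (33.7% and -0.04 over all genes). In number 3, 6 of 42 were higher, with a median of -0.09 (33.7% and -0.05 over all genes), on the pair in which Cd24a itself was near equal. Ect2 read 8.96, 10.50 and 9.31 with CD24 siRNA and IBMX/Dex, 7.98, 10.60 and 9.31 with scrambled siRNA and IBMX/Dex and 8.73, 10.55 and 9.42 with vehicle on the arrays of numbers 1, 2 and 3, so its wide difference in number 1 came with a scrambled siRNA array below the vehicle array. With 1 pair in each number, the differences between numbers were not tested.

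**Figure D5:**
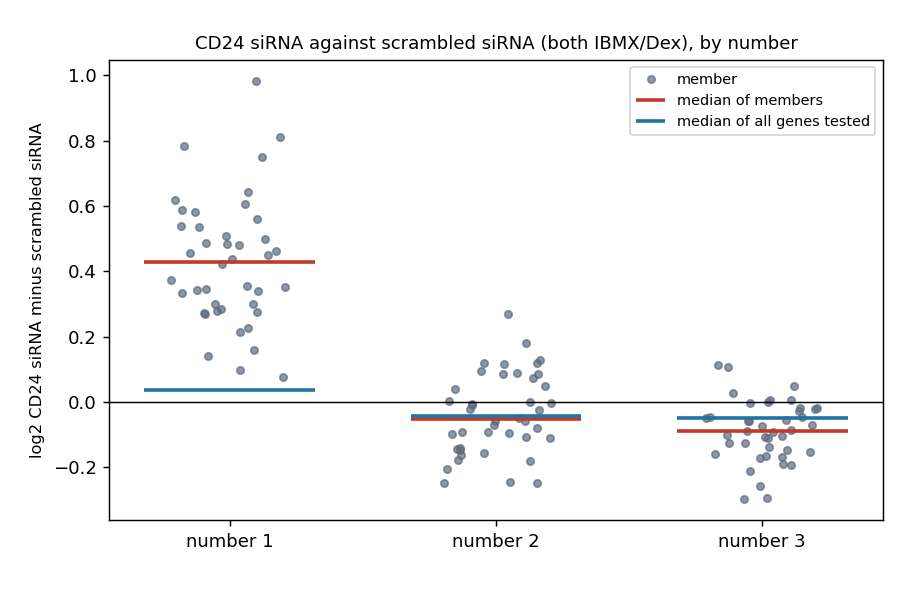
Log2 difference of CD24 siRNA from scrambled siRNA for each of the 42 mitosis genes in each replicate number, with the median of the mitosis genes and of all genes tested as bars. All points lie above 0 in number 1, around a median of 0.43, and the medians are -0.05 in number 2 and -0.09 in number 3.

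Other cell cycle genes were read from 3 further lists of textbook members. Of 49 tested genes of the first, which act in mitosis beside the set described here, 41 were higher in number 2 than in number 1 and 0 lower, with a median of 1.12, where 8.05% of all genes tested were higher and 12.3% lower. Ccna2, the cyclin A of S phase and mitosis, was higher by 1.62 ± 0.11, Aspm, a spindle pole protein, by 1.63 ± 0.12, and Spag5, a spindle protein, by 1.62 ± 0.12 (adjusted p = 0.000113, 0.000117 and 0.000158). Of 38 tested genes of S phase, 24 were higher and 0 lower, with a median of 0.54, and Tk1, a thymidine kinase, was higher by 1.23 ± 0.12 (adjusted p = 0.000371). Of 19 genes of cell cycle arrest and of the DREAM complex, 7 were higher and 3 lower. Among the higher were Rb1, the retinoblastoma protein, at 0.62 ± 0.11 (adjusted p = 0.00603), and Cdkn2c at 0.54 ± 0.11 (adjusted p = 0.0103). Rbl1, the pocket protein p107, was also higher, by 1.05 ± 0.20 (adjusted p = 0.0082). Btg2, an antiproliferative gene, fell by 0.69 on the log2 scale (adjusted p = 0.0161).

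Against vehicle, 11 of the 49 other mitosis genes rose and 0 fell with CD24 siRNA, and 7 rose and 2 fell with scrambled siRNA. The 11 are 22.4% of the list, against 10.4% of all genes tested that rose with CD24 siRNA, and the 7 are 14.3%, near the 11.9% of all genes that rose with scrambled siRNA. Without the array labelled CD24 siRNA replicate 3, 15 rose with CD24 siRNA (30.6%, against 7.28% of all genes tested). Without the replicate block 0 passed with either siRNA, where 6.65% of all genes tested passed with CD24 siRNA and 6.94% with scrambled siRNA. Wee1, the kinase that holds Cdk1 inactive, read 8.76, 9.86 and 8.66 with CD24 siRNA and IBMX/Dex, 8.41, 9.88 and 8.84 with scrambled siRNA and IBMX/Dex and 7.67, 8.65 and 7.95 with vehicle. It was above vehicle in all 3 numbers, by 1.00 ± 0.13 with CD24 siRNA (2.00-fold, adjusted p = 0.000942) and 0.95 ± 0.13 with scrambled siRNA (1.93-fold, adjusted p = 0.00111). Bora, an activator of Aurora A, rose by 0.64 ± 0.15 with CD24 siRNA and 0.65 ± 0.15 with scrambled siRNA (adjusted p = 0.0153 and 0.0139). Pbk, a mitotic kinase, rose by 0.56 ± 0.12 with CD24 siRNA and 0.46 ± 0.12 with scrambled siRNA (adjusted p = 0.00949 and 0.0219).

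Of the 38 S phase genes, 11 rose with CD24 siRNA and 7 with scrambled siRNA, and 0 fell with either. The shares that rose were 28.9% with CD24 siRNA and 18.4% with scrambled siRNA, against 10.4% and 11.9% of all genes tested. Without the array labelled CD24 siRNA replicate 3, 13 rose with CD24 siRNA (34.2%, against 7.28% of all genes tested). Without the replicate block 3 rose with CD24 siRNA (7.89%) and 2 with scrambled siRNA (5.26%), against 2.92% and 3.33% of all genes tested. Rrm2, the small subunit of the enzyme that makes deoxynucleotides, read 8.69, 8.98 and 8.57 with CD24 siRNA and IBMX/Dex, 8.47, 9.04 and 8.50 with scrambled siRNA and IBMX/Dex and 7.10, 7.36 and 7.43 with vehicle. Its IBMX/Dex and vehicle arrays did not overlap even across numbers, and it was 2.73-fold higher with CD24 siRNA (adjusted p = 9.39e-05) and 2.59-fold higher with scrambled siRNA (adjusted p = 0.000138). Slbp, the histone mRNA binding protein, rose by 0.64 ± 0.09 with CD24 siRNA and 0.68 ± 0.09 with scrambled siRNA (adjusted p = 0.00152 and 0.00104). Pcna, the replication clamp, rose by 0.55 ± 0.10 with CD24 siRNA and 0.53 ± 0.10 with scrambled siRNA (adjusted p = 0.0051 and 0.00555).

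Of the 19 arrest and DREAM genes, 2 rose and 6 fell with CD24 siRNA, and 2 rose and 3 fell with scrambled siRNA. The 2 that rose are 10.5% of the list in both comparisons, near the share of all genes tested (10.4% with CD24 siRNA and 11.9% with scrambled siRNA). The shares that fell were 31.6% with CD24 siRNA and 15.8% with scrambled siRNA, against 12.1% and 11.4% of all genes. Without the array labelled CD24 siRNA replicate 3, 3 fell with CD24 siRNA (15.8%, against 6.68% of all genes tested). Without the replicate block 2 fell in each comparison (10.5%), against 3.73% of all genes tested with CD24 siRNA and 3.60% with scrambled siRNA. Gas1, a growth arrest gene, read 9.53, 9.46 and 9.61 with CD24 siRNA and IBMX/Dex, 9.47, 9.76 and 9.74 with scrambled siRNA and IBMX/Dex and 10.72, 10.24 and 10.92 with vehicle, with every IBMX/Dex array below every vehicle array. It fell by 1.09 on the log2 scale with CD24 siRNA (adjusted p = 0.0011) and fell by 0.97 with scrambled siRNA (adjusted p = 0.00185). Cdkn2b, the inhibitor p15 of Cdk4 and Cdk6, fell by 1.17 with CD24 siRNA and fell by 1.04 with scrambled siRNA (adjusted p = 0.00134 and 0.00218). Rb1, the retinoblastoma protein, fell by 0.74 with CD24 siRNA and fell by 0.69 with scrambled siRNA (adjusted p = 0.00205 and 0.00262). Btg1, an antiproliferative gene, rose by 0.58 ± 0.10 with CD24 siRNA and 0.84 ± 0.10 with scrambled siRNA (adjusted p = 0.0042 and 0.000611).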

How the data were processed

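RNA of 9 samples was measured on 1 single-colour array each, 3 per group. The deposited values are log2 levels that the authors obtained by RMA through the oligo package, per the submitters' processing notes, which name no versions. Since RMA forces arrays toward a common distribution, a change shared by most transcripts would not be seen. The log2 values were used as deposited.

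The table had 41345 probe sets. Only the 23521 that carry a single symbol were used (1814 carry more, and 16010 are unnamed here), with the brightest probe set of each gene. Probe sets that join a member with another gene, as for Top2a and Nusap1, stayed out. Levels of different genes were set against each other only to pick the brightest members and to give the range of marker means. The number of arrays limits the precision.

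A linear model (limma 3.58.1 under R 4.3.3, functions lmFit and eBayes) took all 9 arrays, with the group and the replicate number as terms. Its two-sided p-values were adjusted by Benjamini-Hochberg over the 12630 genes tested, with a threshold of 0.05. The fits were checked on simulated data. The titles give the numbers. Deviations from group means correlated across genes at 0.377 to 0.732 for arrays sharing a number, and at -0.589 to 0.116 otherwise, so the number served as a pairing. Deviations within a group cancel out, so high values for same-numbered pairs push those of the other pairs down. Alternatives were no block, each array or number left out, other filters, quantile normalization, median centring, the mean of probe sets and an intensity trend.

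The members and lists were chosen with earlier results of these data known, among them that these genes differ between numbers. Values on every array are given for 8 measured genes chosen by name (Cdk1, Mki67, Top2a, Plk1, Aurkb, Bub1, Cdc20 and Kif11), for the brightest member and the one with the widest range of number means in each role group, and for members that passed between groups. Up to 4 genes of each other list with the smallest p per comparison were eligible to be named. Ect2 was added on every array after its values were seen.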

Additional observations from a re-analysis of the deposited data

How the results depend on the processing

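The fit without the replicate block gave 0 of 42 genes in each comparison of IBMX/Dex with vehicle, against 11 with CD24 siRNA and 6 with scrambled siRNA with it, and 0 between the siRNAs either way. Over settings that left out an array or a number, the count was 2 to 13 with CD24 siRNA, 1 to 7 with scrambled siRNA, 0 between the siRNAs, 40 to 42 for number 2 against number 1, 30 to 41 for number 2 against number 3, 6 to 24 for number 3 against number 1 and 21 to 42 for the F test over numbers, where 21 is the count without number 2. With no filter, 4 genes passed with CD24 siRNA and 2 with scrambled siRNA, where 22180 genes share the adjustment, and with array medians centred 4 passed with CD24 siRNA; the cause of this last change was not tested. Quantile normalization gave 14 with CD24 siRNA and 9 with scrambled siRNA, among these 9 Ccnb2 and Anln as lower. Top2a passed with scrambled siRNA in 19 of 20 alternative settings, all but that without the block. Other genes passed less often. With scrambled siRNA the lowest was Ttk, in 8 of 19 settings, and Incenp passed in 9 of 20. With CD24 siRNA, Prc1 passed in 6 of 20, Birc5 and Kif4 each in 7 of 19, and Cenpe in 8 of 20, while Aurka passed in 18 of 20. The mean of probe sets, counted among these settings, could not change a member's own values, since each member had 1 probe set. For single genes that passed in the fit with all arrays and the block, 1796 results under an alternative kept their direction and still passed. Another 278 kept the direction and no longer passed, and 0 reversed. These counts pool comparisons between groups with those between numbers. Most of the genes that passed did so between numbers, a difference known when the set was chosen. The pooled counts are thus no measure of how often the treatment results held, for which the settings given gene by gene apply. Genes that had not passed are outside these counts, and some of them changed direction or passed under an alternative. Cdc25b, with CD24 siRNA against vehicle, went from -0.09 to 0.03 without the array labelled CD24 siRNA replicate 3. With 3 arrays per group, and with the siRNA array of number 3 not lowered in Cd24a, differences smaller than the intervals given cannot be seen.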

Other observations

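A probe set named Sgo1, the current symbol of Sgol1, a protector of centromere cohesion, lay outside the rule on exact symbols. On the arrays of numbers 1, 2 and 3 it read 8.06, 9.13 and 7.94 with CD24 siRNA and IBMX/Dex, 7.56, 9.18 and 8.11 with scrambled siRNA and IBMX/Dex and 7.67, 8.66 and 7.73 with vehicle. The 3 number 2 arrays were above the other 6, as for 40 of the 42 measured members.

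Cdkn1a, the Cdk inhibitor p21, was highest in number 3, where the mitosis genes were highest in number 2. Like most of them, it was lowest in number 1. It was 0.98 ± 0.13 higher in number 3 than in number 1 (limma adjusted p = 0.00253) and fell by 0.55 on the log2 scale in number 2 relative to number 3 (adjusted p = 0.0421). On the arrays of numbers 1, 2 and 3 it read 11.49, 11.66 and 12.23 with CD24 siRNA and IBMX/Dex, 10.98, 11.80 and 12.22 with scrambled siRNA and IBMX/Dex and 11.34, 11.62 and 12.29 with vehicle.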
